A study of Mus musculus with 72 samples.

Results

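The lungs of 3 mice given 4 Gy of X-rays to the whole body were compared with the lungs of 3 sham-irradiated mice (0 Gy). The animals were female C57BL/6 J mice, 6 to 8 weeks old at exposure. The dose was a single surface dose, delivered at 1.05 Gy per minute. The control animals went through the same handling in the same kind of container, and all organs were taken 48 h later and snap frozen. Whole-lung RNA was hybridised to 1-colour Agilent mouse expression arrays, 1 array per mouse. The comparison used 6 of the 72 samples of the series, picked by their titles, and the model was fitted on all 18 lung mRNA arrays, which hold 6 dose groups (0 Gy and 5 doses from 1 to 12 Gy) of 3 mice. The 0 Gy mice carried the numbers 1, 11 and 21 and the 4 Gy mice the numbers 4, 14 and 24, and values below follow that order. All values are normalized log2 intensities unless stated otherwise, so 1 unit is a 2-fold difference, and levels of different genes are not set against each other.

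Ionising radiation breaks DNA, and the ATM kinase then stabilises the transcription factor p53. p53 switches on inhibitors of the cell cycle such as *Cdkn1a*, genes that promote cell death such as *Eda2r* and *Pmaip1*, and its own antagonist *Mdm2*. Cells that stop dividing lose the transcripts of mitosis, whose promoters carry CHR elements, bound by the DREAM repressor complex, and CCAAT boxes, bound by the activator NF-Y. The lung also holds a large pool of circulating and resident lymphocytes, which are among the most radiosensitive cells of the body, whereas its epithelium and endothelium divide rarely. Whole-lung RNA carries blood as well, and with it the transcripts of the youngest red cells released by the bone marrow.

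The tissue label matched its markers. The design text of the series speaks of hearts, whereas titles, source names and the tissue label say lung, and the titles were followed. The surfactant gene *Sftpc* (alveolar type 2 cells), *Ager* (alveolar type 1 cells), *Scgb1a1* (airway club cells) and *Cldn5* (endothelium) were well above background on all 6 arrays, and *Sftpc* lay at 18.40 in 4 of them and 18.39 in the other two. The quantile normalization fixes the brightest values of every array, so genes at the very top, *Sftpc* and *Scgb1a1* among them, could not show a change. Between 59.2% and 64.0% of the spots were well above background on the 6 arrays, and no lung spot was saturated.

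Some lungs stood apart in marker transcripts of neighbouring organs. The mean level of 8 thymocyte markers was 6.28, 6.99 and 9.02 in the 0 Gy lungs and 5.77, 5.68 and 6.10 in the 4 Gy lungs, so 0 Gy mouse 21 stood apart. In that lung *Dntt*, the terminal transferase of immature lymphocytes, reached 13.22, against 5.83 and 8.22 in the other 0 Gy lungs and at most 5.40 at 4 Gy. The mean level of 15 hepatocyte markers was 7.72, 8.89 and 9.54 at 0 Gy and 7.72, 7.52 and 12.95 at 4 Gy, with albumin (*Alb*) at 14.75 in 4 Gy mouse 24 and between 7.99 and 11.82 in the others. Skeletal muscle markers (9 genes) averaged 7.16, 11.99 and 7.26 at 0 Gy and 10.15, 10.16 and 11.90 at 4 Gy. *Nppa*, the natriuretic peptide of heart atrium, was 16.43 in 4 Gy mouse 4 and between 11.72 and 14.66 in the other lungs. Counts that these arrays could touch are given below with and without 0 Gy mouse 21 and 4 Gy mouse 24.

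**Figure D1:**
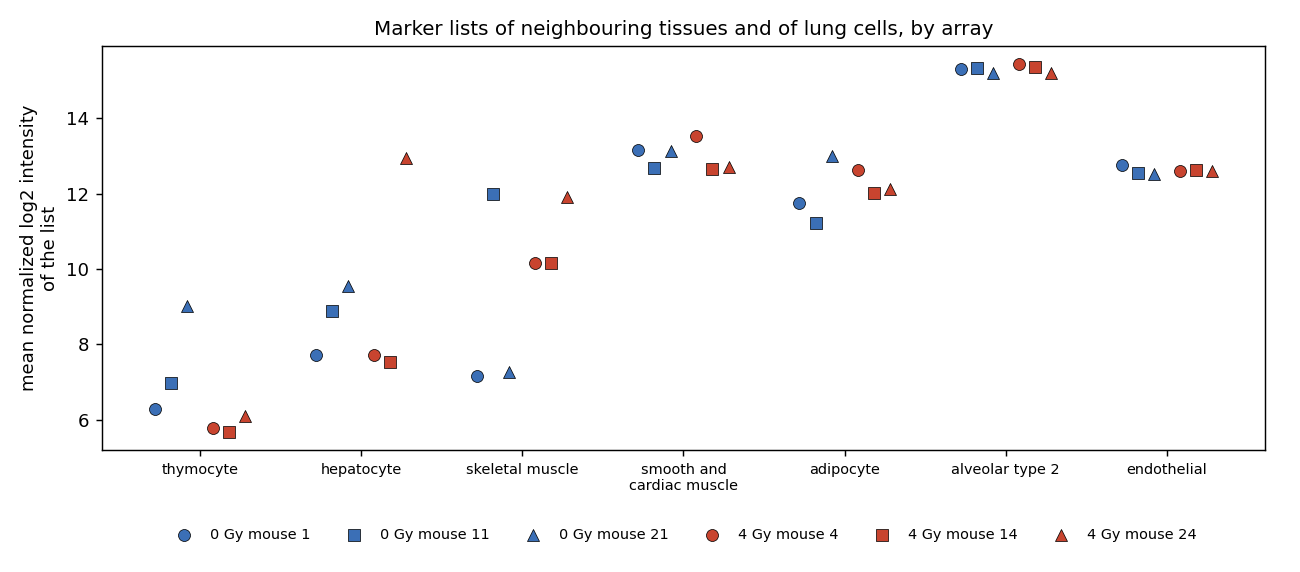
Mean normalized log2 intensity of 7 marker lists (vertical axis) in each of the 6 lungs, blue for 0 Gy and red for 4 Gy, 1 symbol per mouse. Thymocyte markers stand out in 0 Gy mouse 21 (9.02) and hepatocyte markers in 4 Gy mouse 24 (12.95), while alveolar type 2 and endothelial markers are level across all lungs.

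The slides add a limit. All 0 Gy and 1 Gy lung arrays shared 1 slide, and all 2 Gy and 4 Gy arrays shared another, together with 2 of the 8 Gy arrays. Dose and slide therefore cannot be told apart in the comparison of 4 Gy with 0 Gy, while 4 Gy against 2 Gy lies within a single slide. With slide as a random block, 250 probes were called in place of 644. With only the 6 arrays of this comparison normalized and fitted, 158 were called.

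At 4 Gy more transcripts were called lower than higher. A probe was called where the fold change passed 2 and limma's Benjamini-Hochberg adjusted p lay under 0.05. Of 43976 tested probes, 644 were called (1.46%), of which 108 were higher (0.246%) and 536 were lower at 4 Gy (1.22%). Counted with 1 probe per gene, the brightest, 67 of 19875 genes were higher (0.337%) and 320 lower (1.61%), and the counts of list members below, also with 1 probe per gene, are to be read beside these shares. The 2 groups overlapped for 2 of the 644 called probes. Probes that pass the call seldom overlap, so this adds no support of its own. Of all 43976 tested probes, the 4 Gy arrays lay all above the 0 Gy arrays for 5331 and all below for 3201. Of the probes called lower, 106 were not well above background on any 4 Gy array. The median change over all tested probes was 0.04, a value that quantile normalization holds near 0, so a shift of the whole array could not be seen here. No gene symbol was assigned to 136 of the called probes, and these are only counted. The largest gains were those of *Eda2r*, *Gdf15*, *Saa1*, *Ces2e*, *Cdkn1a*, *Saa3*, *Tat*, *Psrc1*, *Ces2a*, *Celf5*, *Hspbap1* and the long non-coding RNA gene *A930001C03Rik*. The largest losses were those of *Alas2*, *Hbb-bt*, *Zdhhc22*, *Hbb-b2*, *Cd8b1*, *Slc4a1*, *Hbb-b1*, *Cd8a*, *Unc93a2*, *Fcer2a*, *Fcrla* and *Fcmr*, most of them genes of red cells, B cells and CD8 T cells.

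**Figure D2:**
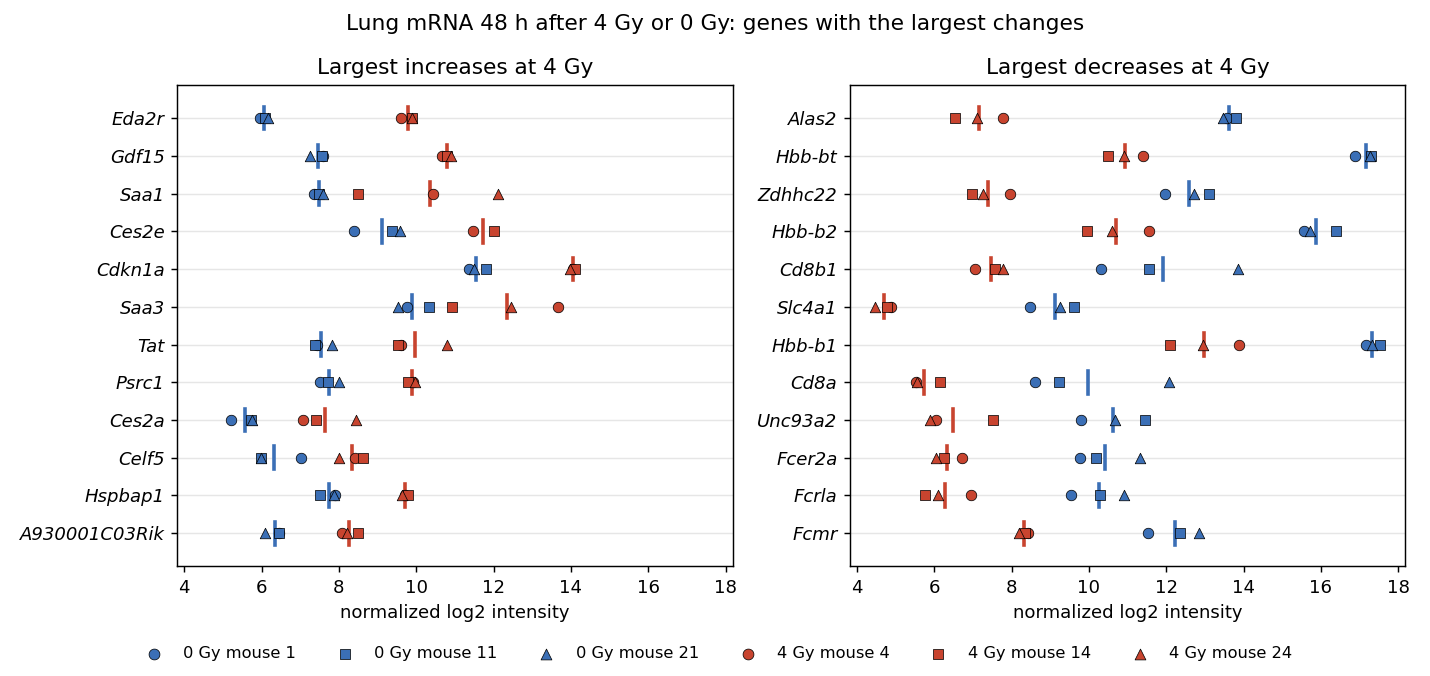
Normalized log2 intensity (horizontal axis) of the 12 genes with the largest gain and the 12 with the largest loss, with 1 symbol per mouse, blue for 0 Gy and red for 4 Gy, and a bar at each group mean. For every gene shown the 0 Gy and 4 Gy lungs do not overlap; the rule for naming them required that. *Ces2e* has 2 points at 4 Gy, since its spot on the array of mouse 24 was marked as an outlier by the scanner software.

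Of the 13 tested p53 targets that arrest growth, 7 rose, none fell and 6 were not called, and the median change was 1.16. *Cdkn1a*, the p21 inhibitor of cyclin-dependent kinases, measured 11.37, 11.79 and 11.49 at 0 Gy and 14.06, 14.10 and 13.98 at 4 Gy. All irradiated lungs lay more than 2 units above all controls, a gain of 2.50 ± 0.20 (SE, n = 3 per group; adjusted p = 3.8e-06), or 5.64-fold. *Gdf15*, a stress-induced cytokine of the TGF-beta family, was 7.58, 7.57 and 7.26 in the controls and 10.68, 10.79 and 10.89 after 4 Gy. This 9.97-fold gain (3.32 ± 0.17, adjusted p = 8.7e-08) was the second largest of the called genes. *Psrc1*, a spindle-associated protein, gained 2.15, *Zmat3* (an RNA-binding zinc finger protein) 1.41, *Ccng1* (cyclin G1) 1.34, *Ddit4l* (an inhibitor of mTOR signalling) 1.16, and *Sesn2* 1.03. The members that did not pass the test included *Btg2* (0.41) and *Plk2* (−0.21). Without 0 Gy mouse 21 and 4 Gy mouse 24 together, 4 members were called, and with slide as a random block 3.

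Among p53 targets of cell death, 4 of 14 rose and none fell, with a median of 0.85. *Eda2r*, a receptor of the TNF receptor family that binds ectodysplasin A2, had the largest gain of any called gene. It was low in the controls, at 5.95, 6.08 and 6.17, and reached 9.62, 9.90 and 9.88 at 4 Gy, a 13.3-fold gain (3.73 ± 0.18, adjusted p = 4.2e-08). The brightest of its 3 probes is quoted, another was called too (1.51), and the third was not (1.15, adjusted p = 0.15). *Pmaip1*, which encodes the BH3-only protein Noxa, gained 1.27 (adjusted p = 0.00019), from 11.06, 10.84 and 11.13 to 12.16, 12.37 and 12.31. *Trp53inp1* gained 1.09 and the nuclease gene *Aen* 1.08. One of the 2 *Trp53inp1* probes was called and the other was not (0.72, adjusted p = 0.094). *Trp53inp1* lost its call with slide as a random block (adjusted p = 0.15) and without 0 Gy mouse 21 and 4 Gy mouse 24 together (0.063). *Aen* fell under the fold limit without 4 Gy mouse 14 (0.98). *Phlda3* (0.83), *Tnfrsf10b* (0.88), *Bax* (0.90) and *Ei24* (0.91) had an adjusted p under 0.05 but stayed under the 2-fold limit.

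The feedback and repair targets gave a single call. Of 15 members (median 0.25) only *Dglucy*, the mitochondrial D-glutamate cyclase, was called, at 1.70 ± 0.13 (adjusted p = 2.7e-06), from 9.47, 9.33 and 9.39 to 10.98, 11.02 and 11.30. *Mdm2*, the ubiquitin ligase that degrades p53, measured 12.39, 12.17 and 12.46 at 0 Gy and 13.22, 13.37 and 13.23 at 4 Gy. Its groups did not overlap and its adjusted p was 0.0013, but the difference of 0.93 was under the fold limit. The excision repair genes *Xpc* (0.09), *Ddb2* (0.21) and *Ercc5* (0.25) were not called.

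**Figure D3:**
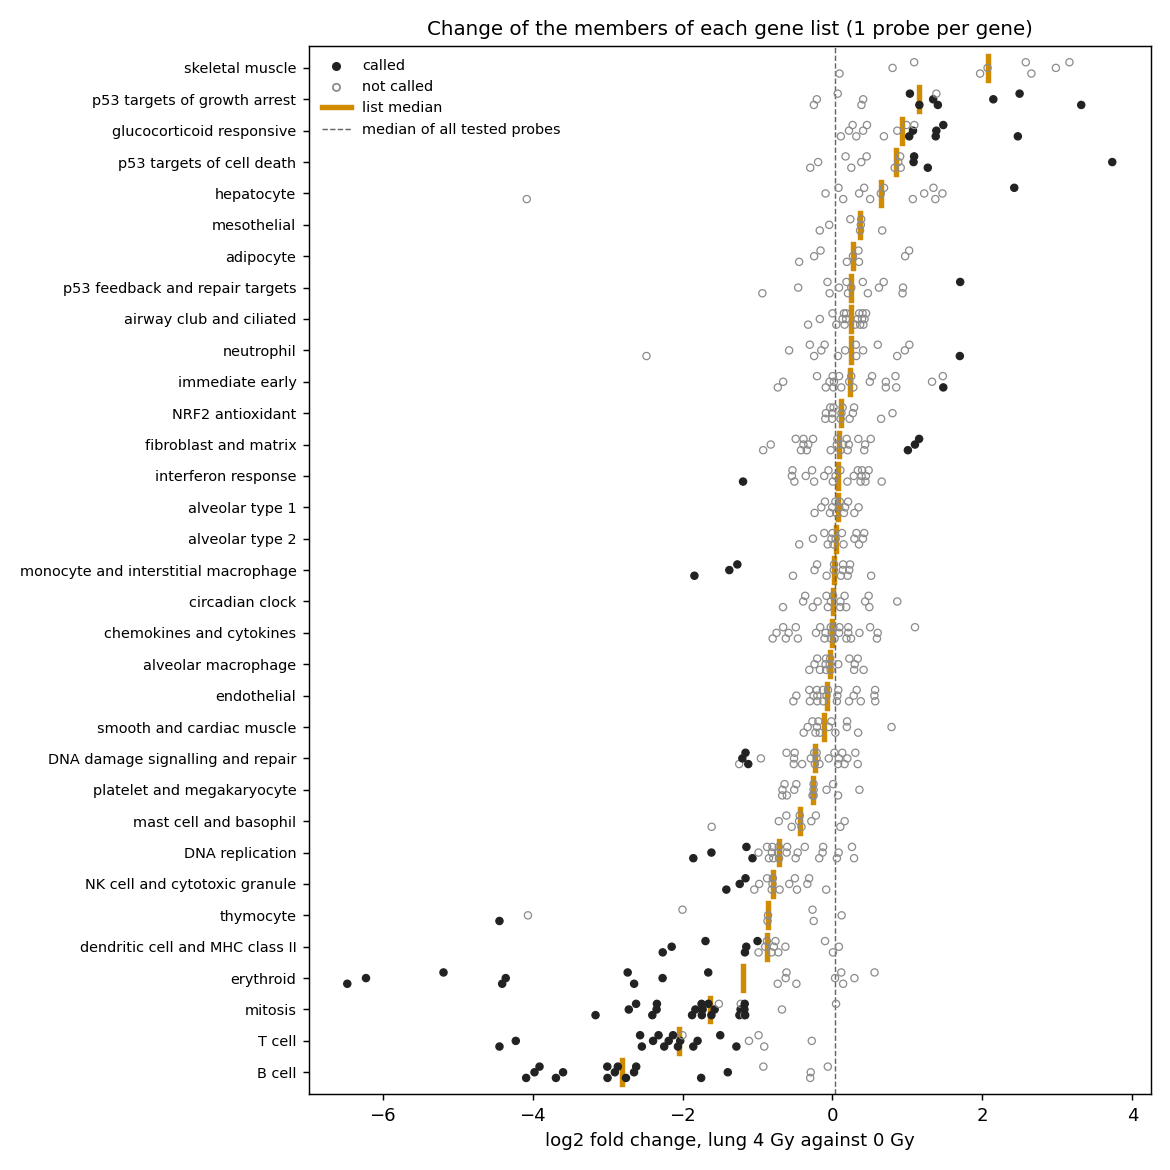
Log2 fold change at 4 Gy against 0 Gy (horizontal axis) of every tested member of the 33 gene lists, filled where called and open where not, with the list median as an orange bar and the median of all tested probes as a dashed line. The p53 and glucocorticoid lists lie to the right, the B cell, T cell, mitosis and erythroid lists to the left, and the lists of lung epithelium and endothelium hold no called member.

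Transcripts of mitosis fell. Of the 24 members of the list 19 were called lower and none higher, with a median of −1.63. *Ube2c*, the ubiquitin-conjugating enzyme of the anaphase-promoting complex, measured 8.82, 9.64 and 10.66 at 0 Gy and 6.98, 6.41 and 6.25 at 4 Gy (−3.16 ± 0.36, adjusted p = 0.00013). *Mki67*, which encodes the proliferation antigen Ki-67, was 10.35, 10.54 and 11.91 and then 8.10, 8.28 and 8.57 (−2.62 ± 0.42, adjusted p = 0.0026). Both genes were highest in 0 Gy mouse 21, the lung with high thymocyte markers. *Birc5* (survivin) fell by 2.72, *Ccna2* (cyclin A2) by 2.35 and *Top2a* (topoisomerase II alpha) by 2.34. *Ccnb1* (cyclin B1) fell by 2.40 on its brightest probe, and its 2 dimmer probes were not called (−1.35 and −0.54). *Cdk1*, whose kinase partners the mitotic cyclins, was not called (0.05). Without 0 Gy mouse 21 there were 11 called members, without 4 Gy mouse 24 as well 7, and with slide as a random block 6. The part of the thymocyte transcripts in these differences was not tested beyond that. With only the 6 arrays normalized and fitted, *Ube2c*, *Mki67*, *Birc5*, *Ccna2*, *Top2a* and *Ccnb1* all lost their call (limma adjusted p from 0.064 to 0.15).

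Genes of DNA replication gave fewer calls. Of 25, 4 fell: thymidine kinase *Tk1* by 1.86, the ribonucleotide reductase subunit *Rrm2* by 1.61, the helicase subunit *Mcm5* by 1.15 and *Ccne1* (cyclin E1) by 1.07. The median of the list was −0.71. *Pcna*, the sliding clamp of the replication fork, was at −0.12 and not called. Without 0 Gy mouse 21, 2 members were called, and with slide as a random block none (0 of 25, adjusted p between 0.053 for *Tk1* and 0.15 for *Ccne1*). In the list of DNA damage signalling and repair 3 of 25 members fell, among them the homologous recombination gene *Brca1* (−1.12) and the nuclease gene *Exo1* (−1.16). None of these 3 was called without 0 Gy mouse 21 or with slide as a random block, and a second *Brca1* probe was not called (0.40, adjusted p = 0.63).

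The promoters of the fallen mitosis genes are shown because CHR and CCAAT letters can be read in them. RefSeq promoter windows (mouse build GRCm38.p6, from 250 bases before to 50 bases after the transcription start) were found for 15 of the 19 genes. The letters TTTGAA (CHR element), searched on both strands, stood in 9 of these 15 windows (60.0%) and in 17.9% of all 32851 promoter windows. The letters CCAAT, on both strands, stood in 12 of 15 (80.0%) and in 37.4% of all. They were not limited to fallen genes. Among called p53 targets, which rose, they stood in 5 of 9 windows for growth arrest (55.6%) and 3 of 3 for cell death (100.0%). The windows of the 4 fallen DNA replication genes held CCAAT in 2 cases and the CHR letters in 0. The stretches below run 5′ to 3′ from 150 bases before to 30 bases after the start, with matches to either element in capitals, read as TTCAAA or ATTGG where the match is on the other strand. *Ube2c* lies at chr2:164769779-164769958 (plus strand), *Mki67* at chr7:135716350-135716529 (minus strand), *Top2a* at chr11:99024160-99024339 (minus strand) and *Ccnb1* at chr13:100786457-100786636 (minus strand).
*Ube2c*: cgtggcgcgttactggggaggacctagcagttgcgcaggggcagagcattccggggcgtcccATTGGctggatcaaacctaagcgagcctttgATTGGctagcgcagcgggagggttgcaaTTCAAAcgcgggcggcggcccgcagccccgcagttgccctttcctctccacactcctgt
*Mki67*: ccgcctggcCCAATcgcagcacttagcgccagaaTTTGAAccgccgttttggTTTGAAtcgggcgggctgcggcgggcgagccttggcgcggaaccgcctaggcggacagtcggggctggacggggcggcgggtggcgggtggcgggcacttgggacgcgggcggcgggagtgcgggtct
*Top2a*: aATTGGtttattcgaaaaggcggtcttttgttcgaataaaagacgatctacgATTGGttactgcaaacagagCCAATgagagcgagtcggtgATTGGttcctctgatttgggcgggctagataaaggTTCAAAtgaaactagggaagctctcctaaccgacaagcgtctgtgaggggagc
*Ccnb1*: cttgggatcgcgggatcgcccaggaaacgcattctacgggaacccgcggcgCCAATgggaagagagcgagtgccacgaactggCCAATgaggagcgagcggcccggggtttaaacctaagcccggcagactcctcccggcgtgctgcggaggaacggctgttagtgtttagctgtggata
The CHR letters occur near the start in *Ube2c* and *Top2a* and further upstream, in 2 copies, in *Mki67*. The *Ccnb1* stretch holds the CCAAT letters alone. The same stretch of *Birc5* holds neither, and a match or its absence says nothing of what is bound there.

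For the growth arrest targets the letters searched were CATGNNNNNNCATG, a paired core of the p53 element that reads alike on both strands. They stood in 1 of the 9 windows of these genes (11.1%) and in 0.712% of all windows. The window that held them was the first of 2 windows of *Cdkn1a*, shown here with the match in capitals, at chr17:29090829-29091008 (plus strand).
*Cdkn1a*: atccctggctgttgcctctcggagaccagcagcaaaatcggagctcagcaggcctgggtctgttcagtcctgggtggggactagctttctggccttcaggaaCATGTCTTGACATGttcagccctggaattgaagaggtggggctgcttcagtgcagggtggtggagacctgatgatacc
None of the windows of the other called genes of growth arrest and cell death held this spacing of the core, and the feedback and repair targets were not searched.

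B cell transcripts fell. Of the 18 tested markers 14 were called lower and none higher, and the median change was −2.81. Fewer cells of a type and less RNA per cell cannot be told apart in bulk tissue, here and in the other cell lists. *Fcer2a* (CD23, the low-affinity IgE receptor) was 9.77, 10.19 and 11.32 at 0 Gy and 6.71, 6.26 and 6.05 at 4 Gy. This loss of 4.09 ± 0.35 (adjusted p = 7.8e-06) left the groups more than 3 units apart. *Fcrla* fell by 3.97, the IgM receptor *Fcmr* by 3.91, the complement receptor *Cr2* (CD21) by 3.59 and the transcription factor *Spib* by 3.00. Not called were *Blnk* (−0.92), *Pax5* (−0.30), *Vpreb3* (−0.29) and *Ebf1* (−0.06). There were 14 called members without 0 Gy mouse 21, 13 without 4 Gy mouse 24 as well, and 13 with slide as a random block.

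T cell transcripts fell too, and the CD8 chains most. Of 20 markers 15 were called lower and none higher, with a median of −2.05. *Cd8a* was 8.61, 9.23 and 12.06 at 0 Gy and 5.52, 6.15 and 5.56 at 4 Gy (−4.22 ± 0.57, adjusted p = 0.00057). *Cd8b1* was 10.31, 11.56 and 13.85 and then 7.06, 7.56 and 7.78 (−4.44 ± 0.57, adjusted p = 0.00035). In both genes 0 Gy mouse 21 was the highest by over 2 units, as it was for the thymocyte markers. The part of thymocyte transcripts in these losses was not tested beyond the counts below. *Cd3e* and *Cd3d*, invariant chains of the T cell receptor complex, fell by 2.54 and 2.39 and the kinase gene *Lck* by 2.57. The homing receptor *Ccr7* fell by 2.32. *Cd4* was not called (−0.28). Without 0 Gy mouse 21 there were 11 called members, without 4 Gy mouse 24 as well 10, and with slide as a random block 6. With only the 6 arrays normalized and fitted, *Cd8a*, *Cd8b1*, *Cd3e*, *Cd3d* and *Lck* lost their call (limma adjusted p from 0.11 to 0.15), while *Ccr7* kept it.

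Markers of natural killer cells and cytotoxic granules gave fewer calls: 3 of 16 genes fell and none rose, with a median of −0.80. The inhibitory receptor *Klrd1* (CD94) was 11.10, 11.05 and 10.88 at 0 Gy and 9.61, 9.23 and 9.94 at 4 Gy (−1.42 ± 0.22, adjusted p = 0.0022). The lineage factors *Tbx21* (T-bet, −1.24) and *Eomes* (−1.16) fell as well, *Eomes* on its brighter probe only. The granule genes *Prf1* (−0.08), *Gzmb* (−0.31) and *Gzma* (−0.80) were not called. Leaving out 0 Gy mouse 21 and 4 Gy mouse 24 together left 3 called members. With slide as a random block 1 was called, and *Tbx21* (adjusted p = 0.13) and *Eomes* (adjusted p = 0.060) were not.

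Genes of dendritic cells and of antigen presentation by MHC class II fell in 6 of 17 cases, with none higher and a median of −0.88. *Flt3*, the cytokine receptor of dendritic cell precursors, was 8.77, 8.52 and 8.49 and then 6.58, 6.24 and 6.17 (−2.26 ± 0.20, adjusted p = 8.3e-06). *H2-DMb2* and *H2-DMa*, which load peptides onto class II molecules, fell by 2.14 and 1.69, and the transactivator *Ciita* (−1.17), the dendritic cell factor *Batf3* (−1.15) and the class II chain *H2-Aa* were close to the limits. Of these last 3, none was called without 0 Gy mouse 21, and with slide as a random block 3 members of the list were called. B cells also express class II genes, so this list and the B cell list are not separate readings.

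Myeloid genes gave few calls. None of the 16 alveolar macrophage markers was called (median −0.03); *Chil3* was at −0.04 and *Fabp4* at 0.42. In the list of monocytes and interstitial macrophages 3 of 16 fell. They were *Treml4*, a receptor of patrolling monocytes, from 10.59, 10.28 and 10.65 to 8.53, 8.71 and 8.76 (−1.84 ± 0.22, adjusted p = 0.00018), and the chemokine receptors *Ccr2* (−1.38) and *Cx3cr1* (−1.27). With slide as a random block 1 member was called, without *Ccr2* (adjusted p = 0.16) and *Cx3cr1* (0.10), and *Cx3cr1* was not called without 0 Gy mouse 21 and 4 Gy mouse 24 (adjusted p = 0.062). *Ly6c2*, a marker of classical monocytes, was not called (0.52). Among 16 neutrophil genes the stefin gene *Stfa2l1* rose by 1.70 (adjusted p = 0.011), and the granule gene *Lcn2* (0.32) and the receptor *Csf3r* (−0.15) were not called. The granule gene *Camp* (cathelicidin) had the largest change of the list, from 9.51, 6.67 and 9.59 to 6.23, 5.87 and 6.22, and was not called (−2.48, adjusted p = 0.11), whereas in the fit of lung and liver together it was called lower in lung (−2.33, adjusted p = 0.022). *Stfa2l1* was not called without 4 Gy mouse 14 (adjusted p = 0.062) or 4 Gy mouse 24 (0.056). No member was called among 14 platelet genes, with *Pf4* at −0.25, or among 11 mast cell and basophil genes, with *Kit* at −0.28.

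The largest called losses were those of red cell transcripts. Of 18 erythroid genes 9 fell and none rose, with a median of −1.19. *Alas2*, which catalyses the first step of haem synthesis in red cell precursors, was 13.58, 13.80 and 13.47 at 0 Gy and 7.78, 6.55 and 7.11 at 4 Gy, an 88.7-fold loss (−6.47 ± 0.43, adjusted p = 7.0e-07). The beta-globin genes *Hbb-bt* (−6.22), *Hbb-b2* (−5.19) and *Hbb-b1* (−4.36) and the alpha-globin gene *Hba-a2* (−2.73) fell with it. *Hbb-bt* measured 16.89, 17.30 and 17.28 and then 11.39, 10.50 and 10.91. The sequences of these beta-globin genes are nearly alike, so their probes may share transcripts and their separate folds are uncertain. *Slc4a1*, the anion exchanger band 3 of the red cell membrane, was 8.47, 9.61 and 9.26 in the controls and not well above background in any 4 Gy lung (4.88, 4.77 and 4.48), at least 21.2-fold lower (group means 9.12 and 4.71, adjusted p = 7.1e-05). Other members were not called, among them the erythroid factor *Klf1* (0.12), which was not well above background at 0 Gy, and *Sptb* (0.03). *Zdhhc22* (−5.20) and *Unc93a2* (−4.15, with its other probe not well above background on any of the 6 arrays) were among the 12 largest losses beside the red cell genes. With slide as a random block 7 erythroid genes were called, and 7 without 0 Gy mouse 21 and 4 Gy mouse 24.

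Markers of lung epithelium, endothelium and mesothelium gave no called gene. None was called among 15 alveolar type 2 genes (median 0.04), 14 alveolar type 1 genes (0.07), 18 genes of airway club and ciliated cells (0.24), 22 endothelial genes (−0.07) and 7 mesothelial genes (0.37). *Sftpd*, a collectin made by type 2 cells, was 17.26, 17.22 and 17.11 and then 17.57, 17.55 and 17.53, a difference of 0.35 that did not pass (adjusted p = 0.16). The adhesion molecules of inflamed endothelium, *Icam1* (0.22), *Vcam1* (0.32), *Selp* (0.28) and *Sele* (0.56), were not called either. In the fibroblast and matrix list 3 of 24 rose: the protease inhibitor *Timp1* by 1.16, the matricellular protein *Ccn2*, 2.14-fold, and lysyl oxidase (*Lox*) by 1.01. *Ccn2* went from 14.73, 14.08 and 14.45 to 15.71, 15.44 and 15.41 (adjusted p = 0.0018). The fibrillar collagens *Col1a1* (−0.39) and *Col3a1* (−0.02) were not called. Each of the 3 lost its call without at least 1 of the mice, namely *Timp1* when control mouse 1 or irradiated mouse 24 was left out, *Ccn2* when control mouse 11 was, and *Lox* when control mouse 11 or 21 or irradiated mouse 4 was. With slide as a random block *Ccn2* alone was called.

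Of 16 genes that respond to glucocorticoids, 6 rose and none fell, with a median of 0.93. They were *Saa3* (2.47), the MAP kinase phosphatase *Dusp1* (1.48), *Angptl4* (1.39), *Errfi1* (1.38), *Tsc22d3* (GILZ, 1.07) and the metallothionein *Mt2* (1.02). *Tsc22d3* measured 15.09, 14.41 and 14.40 at 0 Gy and 15.91, 15.66 and 15.56 at 4 Gy (adjusted p = 0.010). *Angptl4*, an inhibitor of lipoprotein lipase, went from 13.08, 12.25 and 13.27 to 14.33, 14.27 and 14.16 (adjusted p = 0.012). *Errfi1*, a feedback inhibitor of the EGF receptor, had no value for 4 Gy mouse 24 (13.65, 13.44 and 13.63, then 14.93 and 14.98). There were 3 called members without 0 Gy mouse 21, 3 without 0 Gy mouse 11 and 1 with slide as a random block. *Fkbp5* (0.41) and *Zbtb16* (0.11), which are classical targets, were not called on their brightest probes.

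The acute phase proteins *Saa1* and *Saa3* rose unevenly. *Saa3* was 9.77, 10.33 and 9.53 at 0 Gy and 13.67, 10.92 and 12.46 at 4 Gy (adjusted p = 0.042). *Saa1* was 7.35, 7.49 and 7.59 and then 10.44, 8.49 and 12.12 (adjusted p = 0.038). Every irradiated lung lay above all controls, by unequal amounts, and *Saa1* was highest in 4 Gy mouse 24. Neither gene was called without that mouse (adjusted p = 0.16 for *Saa1* and 0.14 for *Saa3*) or without 0 Gy mouse 21 (0.11 and 0.15).

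Enzyme genes best known from liver were among the gains. *Tat*, which starts the breakdown of tyrosine, was 7.44, 7.38 and 7.83 and then 9.59, 9.54 and 10.79 (2.42 ± 0.33, adjusted p = 0.00057). The highest value was again in 4 Gy mouse 24, the lung with high hepatocyte markers. These markers averaged 7.72 and 7.52 in mice 4 and 14. Separation from the controls was required by the naming rule, and the part of liver transcripts in this gain was not tested. The carboxylesterase *Ces2e* was 8.40, 9.37 and 9.57 at 0 Gy and 11.46 and 12.00 in 4 Gy mice 4 and 14, with no value for mouse 24 (2.62 ± 0.31, adjusted p = 0.00033). *Ces2a* went from 5.21, 5.74 and 5.76 to 7.06, 7.40 and 8.45 (2.06 ± 0.30). Of the remaining 14 hepatocyte genes none was called in the fit of lung alone, though their changes ran down to −4.08. The 4 Gy lungs lay all below the controls for 1 member of the list. In the fit of lung and liver together 1 hepatocyte gene was called lower in lung. *Hspbap1* rose in all irradiated lungs alike, from 7.91, 7.50 and 7.86 to 9.70, 9.80 and 9.64 (1.96 ± 0.23, adjusted p = 0.00019). *A930001C03Rik* rose from 6.45, 6.45 and 6.10 to 8.09, 8.50 and 8.21 (1.93 ± 0.17, adjusted p = 1.0e-05). *Celf5*, an RNA-binding protein gene, gained 2.02 on its brighter probe, and its other probe, not well above background in any control, was not called (0.33).

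Inflammatory and stress programmes outside these groups gave few calls. Of 22 interferon-response genes *Rsad2* (viperin) fell by 1.19 and no other was called, with *Ifit3* at 0.44 and *Bst2* at 0.04. None of 27 chemokines and cytokines was called. *Dusp1* was the one called gene of 22 immediate early genes, *Fos* (1.47) and *Fosb* (1.33) not passing. None of 17 clock genes and none of 14 NRF2 antioxidant genes was called, with *Nqo1* at 0.80. No member was called in the lists of skeletal muscle (median 2.07, set by the uneven levels above), smooth and cardiac muscle (−0.11) and adipocytes (0.27). In the thymocyte list the one call was that of *Cd8b1*, whereas in the fit of lung and liver together 3 thymocyte genes were called lower in lung.

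Called probes were fewer at the lower doses than at 4 Gy and more numerous at the higher ones. The comparisons share the same 0 Gy lungs, and slide changes along the dose series. The 12 Gy arrays and 1 of the 8 Gy arrays were on a slide with no other lung array, where 54.1% to 54.8% of the spots were well above background, against 59.2% to 64.0% on the other lung arrays, so dose and slide cannot be told apart between 0 Gy and any dose from 2 Gy up. Against 0 Gy, 10 probes were called at 1 Gy (0.0227%), 196 at 2 Gy (0.446%), 1105 at 8 Gy (2.51%) and 3207 at 12 Gy (7.29%). Counts of called members depend on the spread between mice as well as on the size of the change. They do not show the dose at which a list began to change. At 1 Gy and 2 Gy the median change was −1.12 and −1.37 for mitosis, −0.96 and −1.81 for B cell genes and −0.87 and −1.20 for T cell genes. It was −0.37 and −0.92 for erythroid genes and −0.10 and −0.21 for NK and granule genes. Of the growth arrest targets 2, 4, 7, 7 and 8 were called higher in ascending order of dose, and the mitosis list had 1, 7, 19, 19 and 16 called lower. B cell genes called lower numbered 0, 11, 14, 15 and 15, and T cell genes 0, 1, 15, 17 and 18. Erythroid genes called lower numbered 0, 7, 9, 9 and 10. NK and granule genes numbered 0, 0, 3, 13 and 15, and glucocorticoid genes called higher 0, 0, 6, 9 and 13. *Cdkn1a* gained 1.78, 1.88, 2.50, 3.03 and 3.64 over that series of doses and *Gdf15* 1.37, 2.29, 3.32, 3.92 and 4.52.

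**Figure D4:**
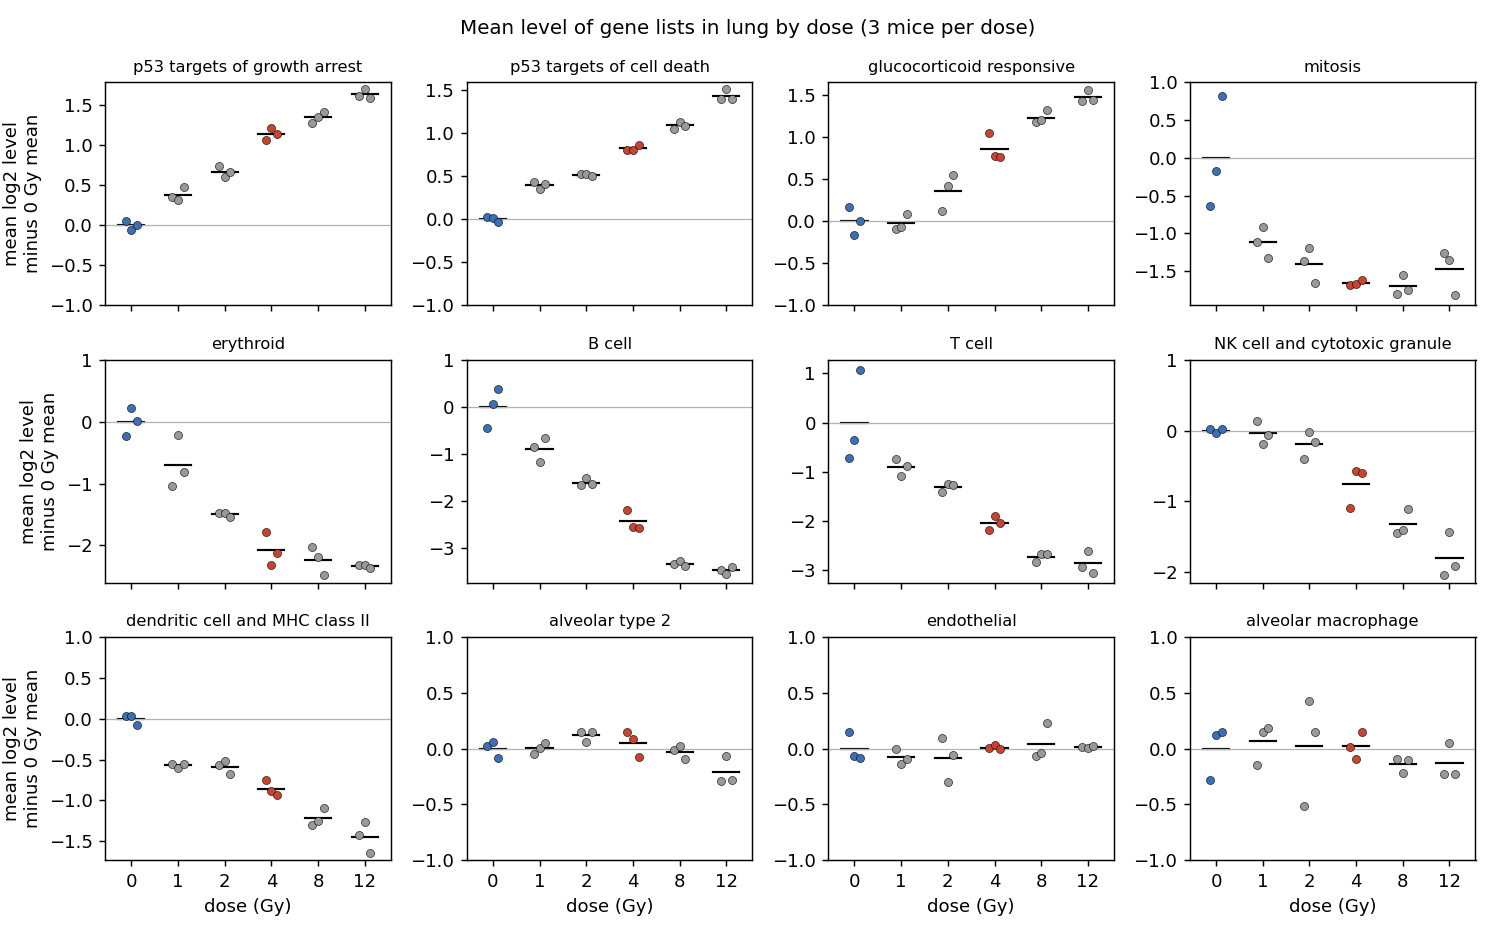
Mean log2 level of 12 gene lists in each lung, less the mean of the 0 Gy lungs (vertical axis, with a scale of its own in each panel), by dose in Gy (horizontal axis, doses evenly spaced), with 3 mice per dose and a bar at their mean, 0 Gy in blue and 4 Gy in red. The B cell, T cell and mitosis lists are below 0 in every irradiated lung, and the alveolar type 2, endothelial and alveolar macrophage lists stay near 0.

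Neighbouring doses, compared without the 0 Gy lungs, gave few calls, which with 3 mice per dose does not show that they were alike. Between 4 Gy and 2 Gy, whose arrays shared a slide, no probe was called by limma (0%), with 2257 at an unadjusted p under 0.05. On the intensities processed by the scanner software the count was also 0. Without 4 Gy mouse 4, the lung with the high *Nppa*, 21 probes were called, and without 4 Gy mouse 24 1. The estimates for *Cdkn1a* (0.62, adjusted p = 0.81), *Eda2r* (1.05, adjusted p = 0.16) and *Alas2* (−1.94, adjusted p = 0.38) did not pass. The lymphocyte lists lay lower at 4 Gy than at 2 Gy, with a median change of −0.97 for B cell genes, −0.73 for T cell genes and −0.59 for NK and granule genes. The mean level of the B cell list was 8.61, 8.77 and 8.63 at 2 Gy and 8.10, 7.73 and 7.71 at 4 Gy. That of the T cell list was 8.47, 8.64 and 8.61 and then 7.69, 7.97 and 7.84. In both lists every 4 Gy lung lay below every 2 Gy lung, given here as a description with no test.

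Between 8 Gy and 4 Gy, 4 probes were called (0.0091%), all lower at 8 Gy, with 2099 at an unadjusted p under 0.05. Among them were probes of *Btla*, an inhibitory receptor of lymphocytes (−1.42), of *Tnfrsf13c*, the BAFF receptor that keeps B cells alive (−2.08), and of a transcript without a symbol. No probe (0) was called with a background offset of 50 or on the intensities processed by the scanner software. The calls also depended on single lungs, with 15 probes without 4 Gy mouse 4 and 1 without 8 Gy mouse 5 or mouse 15. *Btla* and *Tnfrsf13c* had also fallen at 4 Gy against 0 Gy by more than 3 units, *Btla* from 10.22, 10.24 and 10.63 to 7.53, 6.84 and 6.81 and *Tnfrsf13c* from 9.30, 9.88 and 10.29 to 7.13, 6.66 and 6.57. *Tnfrsf13c* has a second probe, above background in 1 control lung only, that was not called at 4 Gy (−0.88).

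The livers of mice with the same numbers were profiled on the same type of array, and the difference between the lung and the liver response to 4 Gy was tested in a fit of all 36 lung and liver arrays. In that fit 645 probes were called in lung (1.36%) and 473 in liver (0.998%), and 117 in both, all in the same direction. The difference itself was called for 133 of 47373 probes (0.281%), of which 50 were higher in lung (0.106%) and 83 lower (0.175%). With mouse as a replicate block, which pairs the organs of each animal, 74 were called. Of the 117 probes called in both organs 112 showed no called difference. The count was 74 without 0 Gy mouse 21, 66 without 4 Gy mouse 14 and 62 without 4 Gy mouse 24. In liver too the 0 Gy arrays shared 1 slide and the 4 Gy arrays another. Dose and slide therefore cannot be told apart in either organ, nor in the difference between them, and no fit with slide was made for it.

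Some T cell genes fell further in lung than in liver, with 2 limits. In the fit of lung alone the T cell list averaged 9.16, 9.52 and 10.95 in the control lungs. The highest value was that of mouse 21, the lung with high thymocyte markers. Of the 20 genes, 14 were well above background in both organs, and for the others a loss in liver could hardly be measured. In the joint fit 16 T cell genes were called lower in lung and 2 in liver, and for 4 of them the difference was called, among them *Cd3e* (−2.57), *Cd3d* (−2.25) and *Cd6* (−1.89). *Cd3e* was 9.70, 10.39 and 12.05 in the control lungs and 7.86, 8.10 and 7.91 in the irradiated ones, while the livers had 9.03, 8.75 and 8.63 and then 8.64, 8.55 and 8.69. With the replicate block the *Cd3e* difference was no longer called (adjusted p = 0.11). Among B cell genes 14 were lower in lung and 10 in liver, with a called difference for *Cr2* (−2.48), *Bank1* (−2.11) and *Cd22* (−1.62). For no mitosis gene (0 of 24) was the difference called, with 17 called lower in lung and 20 in liver. The estimates ran from −1.29 for *Birc5* (unadjusted p = 0.017) to 2.15 for *Prc1* (unadjusted p = 0.0014, adjusted p = 0.17).

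Among genes well above background in both organs, *Alas2* gave the largest loss in lung relative to liver. The lungs went from 13.39, 13.66 and 13.27 to 7.06, 5.96 and 6.44 and the livers from 12.35, 12.01 and 12.09 to 10.96, 10.89 and 11.47, a difference of −5.91 ± 0.51 (adjusted p = 2.6e-07). The livers fell by 1.04, which was not called (adjusted p = 0.14). Among p53 targets, *Pmaip1* rose in lung (1.41) and not in liver (0.00), with a called difference of 1.41 (adjusted p = 0.00075), and *Dglucy* rose by 1.85 against 0.49 (difference 1.37, adjusted p = 9.3e-05). *Phlda3* went the other way, at 0.98 in lung and 2.30 in liver (difference −1.32, adjusted p = 0.0021). For *Cdkn1a* (−1.09, adjusted p = 0.18) and *Eda2r* (0.48, adjusted p = 0.83) no difference was called. For *Hspbap1* (2.04) and *Ces2e* (2.44) the lung rose and the liver did not pass the test, and for *Serpina9* (5.18) the liver fell and the lung did not pass.

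**Figure D5:**
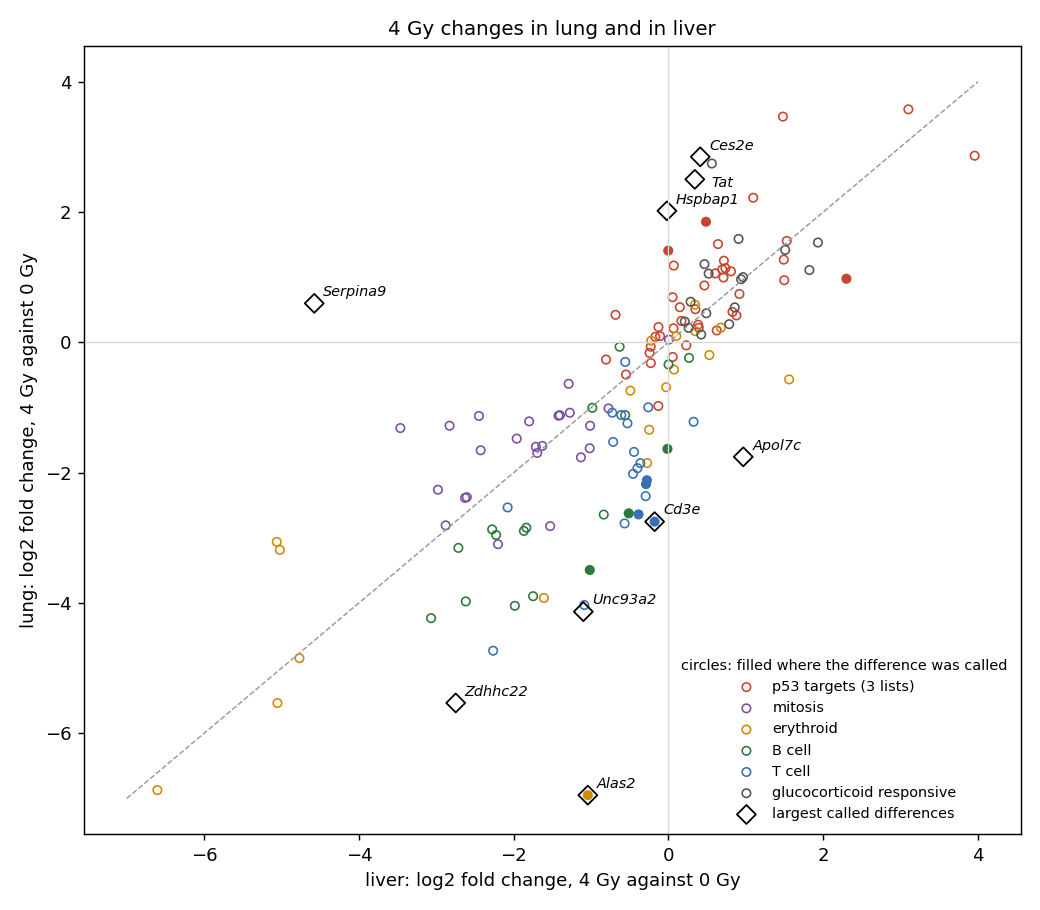
Log2 fold change at 4 Gy against 0 Gy in liver (horizontal axis) and lung (vertical axis) from the fit of both organs. Circles are members of 8 gene lists, filled where the difference between the organs was called. Diamonds are 9 of the 10 genes with the largest called differences among probes well above background in both organs. The dashed line marks equal change. Most T cell genes lie below the line, with *Cd4* above it and with *Cd8b1* (−2.27) and *Ccr7* (−2.08) clearly lower in liver too, mitosis genes lie on both sides of it, and *Alas2* is at −6.95 in lung and −1.04 in liver.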

How the data were processed

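Lung RNA of 18 mice (6 doses, 3 mice each) was read on 1-colour Agilent 8x60K arrays, and the liver arrays of the same mouse numbers were used for the comparison of organs. The authors deposited scanner output of Agilent Feature Extraction 11.5.1.1, which holds a median spot intensity and a background median on a linear scale. They also deposited a table of linear intensity values, with each array near 1 at its 75th percentile, made in a way not given in the sources used here. The 36 miRNA arrays were not used.

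As in the study's methods, intensities were corrected with normexp and arrays quantile-normalized and log2 transformed (R 4.3.3, limma 3.58.1). The offset of 0, leaving out control spots, setting outlier spots to missing and averaging spots per probe were choices made here. A probe was tested where at least 0.5 of its spots were well above background on 1 or more of the 18 lung arrays (36 for the comparison of organs). limma was fitted with 6 dose groups (12 for both organs), and a probe was called at a fold over 2 and an adjusted p under 0.05. Accessions matched 34566 of 56605 probes to a RefSeq symbol. Genes are read on their brightest probe, whereas the study's methods average the probes of a transcript. The scripts were tested on simulated data.

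Named were the 12 genes with the largest change in each direction whose groups did not overlap, up to 6 called members per list (the brightest 2 where fewer were called), and genes called between neighbouring doses or among the largest organ differences. Organ differences were ranked among probes well above background on all 0 Gy or all 4 Gy arrays of each organ. Other list members, named for their role, were chosen after their values were seen. The results of 4 genes are not reported here. The members and the 33 lists were chosen with earlier results of these data known. Same-numbered lungs and livers are taken as organs of 1 animal. Their deviations from the group means correlated between −0.01 and 0.06 (6 mice). Alternatives covered background offset, scaling, filters, outlier spots, the arrays fitted, slide and each mouse left out. Precision is limited by 3 mice per group. Standard errors and p-values rest on the spread between mice of the same dose, pooled over the 6 lung groups (12 for both organs). limma also moderates this spread over all tested probes. Where dose and slide cannot be told apart, the p-values do not separate them. The deposited table of values, log2 transformed, served as 1 alternative.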

Additional observations from a re-analysis of the deposited data

Results flagged for a closer look

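The change at 4 Gy differed between lung and liver, by the interaction term of the limma fit. Dose and slide cannot be told apart in either organ, and the part of slide in these differences was not tested. The largest called differences, 5 in each direction, were taken among probes well above background on all 0 Gy or all 4 Gy arrays of each organ. Of the 133 called probes 107 met this, and 9 of the 10 genes are given here. The difference (log2, lung minus liver) was −5.91 for *Alas2*, −3.03 for *Unc93a2*, −2.79 for *Zdhhc22*, −2.72 for *Apol7c* and −2.57 for *Cd3e*. It was 5.18 for *Serpina9*, 2.44 for *Ces2e*, 2.16 for *Tat* and 2.04 for *Hspbap1*. *Apol7c* was the gene of these 9 whose estimates had opposite signs and both passed an adjusted p of 0.05. It fell in lung, from 8.22, 7.92 and 8.93 to 6.38, 6.85 and 6.57 (−1.76), while the livers went from 11.07, 11.22 and 11.26 to 11.99, 12.18 and 12.29 (0.97, under the 2-fold limit). *Serpina9* fell in liver from 9.87, 10.54 and 9.66 to 5.28, 6.17 and 4.89, and in lung it was 8.79, 9.72 and 8.74 and then 9.17, 9.73 and 10.15. *Zdhhc22* fell in both organs, with changes of −5.53 in lung and −2.75 in liver.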

How the results depend on the processing

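All 74 named genes called at 4 Gy against 0 Gy kept their direction under every alternative that gave a value, and 25 of them stayed called under every alternative that kept all mice of these groups. In every fit without 1 mouse, 51 stayed called. The other 23 kept their direction but missed the fold or the adjusted p (limma, up to 0.18) in at least 1 such fit. Of these, 22 are given here. Without 0 Gy mouse 1 the call was lost for *Batf3*, *Ccr2*, *Ciita*, *Saa1*, *Saa3* and *Timp1*. Without 0 Gy mouse 11 it was lost for *Angptl4*, *Batf3*, *Ccn2*, *Ccr2*, *Exo1*, *H2-Aa*, *Lox*, *Saa1*, *Saa3* and *Tsc22d3*, and without 0 Gy mouse 21 for *Batf3*, *Brca1*, *Ccnb1*, *Ccne1*, *Ciita*, *Exo1*, *H2-Aa*, *Lox*, *Mcm5*, *Mt2*, *Rsad2*, *Saa1*, *Saa3* and *Tsc22d3*. Without 4 Gy mouse 4 it was lost for *Batf3*, *Ciita*, *Exo1*, *H2-Aa*, *Lox*, *Saa1*, *Saa3*, *Trp53inp1* and *Tsc22d3*. Without 4 Gy mouse 14 it was lost for *Aen*, *Batf3*, *Ccnb1*, *Ccne1*, *Ccr2*, *Ddit4l*, *Exo1*, *H2-Aa*, *Mt2* and *Stfa2l1*, and without 4 Gy mouse 24 for *Batf3*, *Ccne1*, *Ciita*, *Exo1*, *H2-Aa*, *Mt2*, *Rsad2*, *Saa1*, *Saa3*, *Stfa2l1* and *Timp1*. The count of 644 called probes stayed within 1.5 times under the background offset of 50 (433), the scanner software's processed signal (683), the deposited table (747), 75th-percentile scaling (601), the filters and the outlier spots. It was 158 with only the 6 arrays normalized and fitted, where 47 named genes lost their call, and 250 with slide as a random block, where 31 did. The 47 included every called gene named for mitosis, DNA replication and NK cells. Without single mice the count ranged from 461 to 811, and without 0 Gy mouse 21 and 4 Gy mouse 24 together, an alternative chosen after seeing the data, it was 366. Slide as a fixed term could not be fitted for this comparison, because no slide holds both doses. 75th-percentile scaling put the median of all probes at 0.11 in place of 0.04. Between 4 Gy and 2 Gy, 4 probes were called with the offset of 50 and 4 with slide as a fixed term, and 0 to 21 without single mice (21 without 4 Gy mouse 4). Between 8 Gy and 4 Gy, 0 were called with the offset of 50 and 0 on the processed signal, and 1 to 15 without single mice (15 without 4 Gy mouse 4). The difference between lung and liver gave 74 called probes with the replicate block that pairs organs by mouse, 207 with the offset of 50, 222 on the processed signal, and 62 to 149 without single mice (74 without mouse 21, 66 without mouse 14 and 62 without mouse 24). The causes of these differences were not tested. Probes not well above background at 4 Gy give only a lower bound of a loss.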
